A study of Mus musculus with 6 samples.

Results

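The regions described here are foetal liver ATRX peaks that lie in runs, meaning peaks with another peak of the same list no more than 100 kb away, edge to edge, on the same chromosome. Runs were built on 16 of the 21 chromosomes, since chromosomes 3, 6, 10, 11 and 13 were left out. The peaks were chosen by their positions in the foetal liver list alone. There, 268 of 665 foetal liver peaks lay in runs, forming 110 runs, out of 983 foetal liver peaks in all and 3037 peaks in both lists of the series. The 397 peaks with no neighbour that close are called solitary below.

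The method was ChIP-seq, in which DNA bound by a protein is pulled down with an antibody, here H300 against ATRX, and sequenced, with 1 library in each group. The foetal liver library came from wild-type C57BL/6 erythroid cells of livers at stage E14.5, selected with antibodies to Ter119, a surface protein of the red cell lineage. It is set beside 1 library of wild-type C57BL/6 mouse embryonic fibroblasts, or MEFs, which are grown in culture and whose list holds 2054 peaks. The other 4 samples of the series (input DNA of the C57BL/6 MEFs, ATRX and input of MEFs labelled W8, and ATRX in Suv39h1/2 knockout MEFs) were not analysed here. The labels do not say how many animals or cultures went into a library.

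ATRX is a chromatin remodelling protein of the SWI/SNF family. With its partner DAXX it deposits the histone variant H3.3, and it is known for binding tandem repeats, telomeres and pericentromeric heterochromatin. Loss-of-function mutations of human ATRX cause a syndrome with alpha thalassaemia, in which the alpha-globin genes are expressed at reduced levels in red cell precursors. In the mouse, alpha-globin genes lie on chromosome 11, which is not among the chromosomes used, and beta-globin genes on chromosome 7. The runs were not set against a gene annotation or sequence of mm9, the build of the lists, so they are named by position.

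Each list gives the chromosome, start and end of a peak and no height, score or read count, so the depth behind a peak is unknown and peaks cannot be ranked by strength. Starts are printed counted from 1. The positions of these peaks chose them, so their number, spacing and clustering are given as a description. With 1 library in each cell type, and peaks of a library not being replicates, no test was made. Intervals cover counting only, and they treat neighbouring peaks as independent, which makes them too narrow for clustered peaks. Where the lists differ, cell type cannot be told apart from depth, control or peak calling.

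Most runs were pairs. Of the 110 runs, 82 held 2 peaks, 18 held 3, 4 held 4, 2 held 5 and 4 held 6, the most in any run. The 28 runs of 3 or more peaks held 104 of the 268 peaks, and the 10 runs of 4 or more held 50. In the wider 50% of the foetal liver list, the number of runs was 41. By the rule 40.3% of the peaks on these chromosomes were in runs.

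Runs spanned a median of 31.2 kb from the first to the last peak (exact 95% interval 20.6 to 47.8 kb, 110 runs), with the middle 50% between 11.9 and 68.8 kb. With gaps up to 50 kb the median span was 17.98 kb, and with gaps up to 200 kb it was 60.5 kb. Spans under 10 kb numbered 24, and 7 spans were over 100 kb. Together the spans made up 4.80 Mb, of which the peaks themselves covered 324.6 kb, or 6.76%. The rest was sequence between called peaks, and the lists hold no signal there. In the median run 7.68% of the span was peak, and the extremes were 1.02% and 98.8%.

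**Figure D1:**
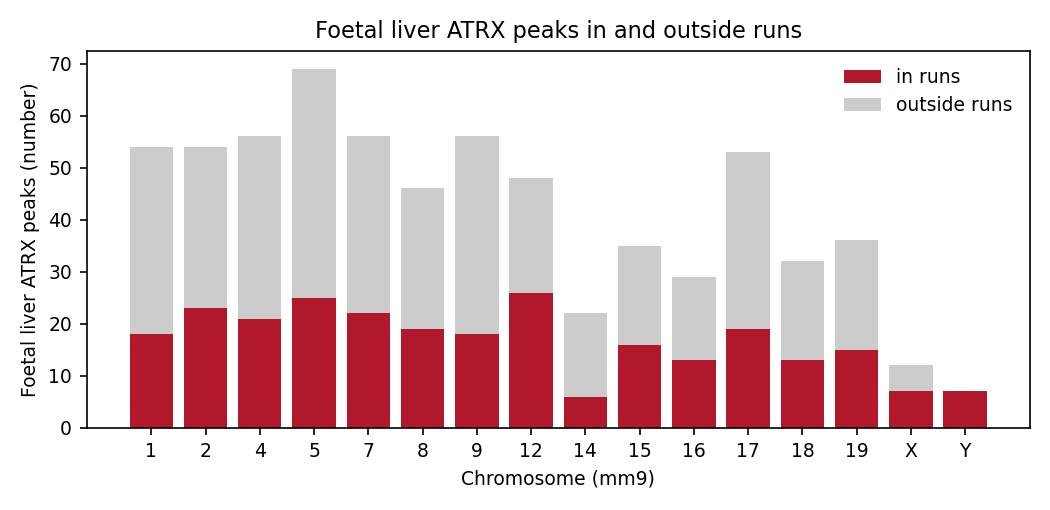
Number of foetal liver ATRX peaks in runs (red) and outside runs (grey) on each of the 16 chromosomes used. Chromosomes 12 and 5 held the most run peaks, 26 and 25. All 7 peaks of chromosome Y were in runs, and all lay between 1161300 and 2774457.

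Every chromosome used held runs. The share of its peaks in runs was 27.3% on chromosome 14 (6 of 22 peaks, exact 95% interval 10.7 to 50.2%), the lowest, and 54.2% on chromosome 12 (26 of 48 peaks, 39.2 to 68.6%), the highest of the autosomes. The intervals of these extremes overlap. Chromosome X held 12 peaks, 7 of them in 3 runs, and chromosome Y held 7 peaks, all in 3 runs. All 7 peaks of Y lay between 1161300 and 2774457. The full length of Y in mm9 is 15.9 Mb, but how much of it is sequenced was not examined. The confinement can therefore not be read as a trait of the peaks. With the peaks of Y in so short a stretch, its share in runs cannot be set against that of other chromosomes. Chromosomes 2, 4, 5 and 12 had 10 runs each. The 5 chromosomes left out held 318 peaks, of which 177 (55.7%) would be in runs by the same rule, in 57 runs with up to 24 peaks.

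Across the 14 autosomes used, run peaks per Mb and protein-coding genes per Mb had a Pearson r of 0.350 and a Spearman rho of 0.310. Gene numbers were taken per chromosome from a RefSeq table of GRCm38.p6, with chromosome lengths from mm9. Without chromosomes 7 and 19, the farthest from the median gene density, r was 0.232 and rho 0.140. All foetal liver peaks per Mb, solitary ones included, had an r of 0.544 and a rho of 0.525 with gene density. Without chromosomes 7 and 19 these were 0.567 and 0.427. The points share 1 library.

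Neighbouring peaks in runs were mostly far closer than the limit of 100 kb. The 158 gaps inside runs had a median of 16.8 kb (exact 95% interval 11.8 to 21.01 kb). In bins of 10 kb, the number of gaps fell from 55 under 10 kb to 32 between 10 and 20 kb and 17 between 20 and 30 kb. From 30 kb up to the limit each bin held 5 to 11 gaps, and the next bins beyond it, up to 120 kb, held 5 and 4. Of the 158 gaps, 121 (76.6%) were at most 50 kb. The count of gaps shows no step at 100 kb, so the limit divides a continuous series of distances.

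**Figure D2:**
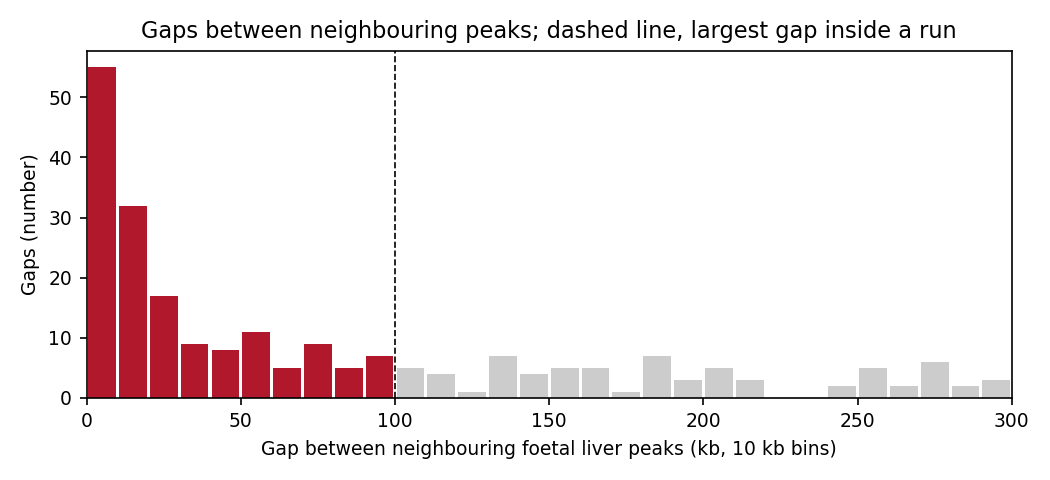
Number of gaps between neighbouring foetal liver peaks on the chromosomes used, in 10 kb bins of gap length up to 300 kb; bars left of the dashed line at 100 kb lie inside runs (red), the others between runs or solitary peaks (grey). The bar for gaps under 10 kb is the tallest, at 55, and the bins on either side of the line hold 7 and 5.

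The pairs nearest the limit show how narrow it is. Just inside it lay gaps of 97.7 kb on chromosome 12 (from the peak at 88135979 to 88137688 to the peak at 88235413 to 88235714), 96.3 kb on chromosome 5 and 95.8 kb on chromosome 2. The last 2 join the outermost peak to runs of 6 and of 4 peaks that are described below. Just outside it were 100493 bp on chromosome 16 (32509243 to 32510035 and 32610529 to 32610954), 100496 bp on chromosome 4 (131983444 to 131984510 and 132085007 to 132085802) and 103.6 kb on chromosome 9 (107877683 to 107878156 and 107981751 to 107982983). The widths of the peaks in these 6 pairs, 302 to 1710 bp, overlapped between the inside and the outside.

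At the short end, 1 gap was under 1 kb. It separates by 282 bp a pair near the distal end of chromosome X, and the next smallest gap measured 1007 bp, on chromosome Y. The shortest runs were pairs, with peaks of 344 to 1162 bp. They lay on chromosome 12 (107646231 to 107648347, a span of 2117 bp), chromosome 2 (122201122 to 122203256, 2135 bp) and chromosome Y (1161300 to 1164598, 3299 bp). The next were on chromosome 15 (88253894 to 88257412, 3519 bp) and again on chromosome 2 (172860312 to 172864160, 3849 bp). None of these 5 held a MEF peak, and neither did most runs of 2, of which 11 of 82 held one.

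Among the 10 runs of 4 or more peaks, 4 had 6 peaks, and these were unlike each other in build. On chromosome 7 a run of 6 (110961359 to 111058956, 97.6 kb) began with a pair of peaks of similar width, 1452 and 1506 bp, 12.9 kb apart (110961359 to 110962810 and 110975741 to 110977246). After a gap of 32.1 kb came 3 peaks of 883, 899 and 1001 bp with gaps of 3652 and 3906 bp between them (111009369 to 111010251, 111013904 to 111014802 and 111018709 to 111019709). A single peak of 466 bp closed the run 38.8 kb further on (111058491 to 111058956). The nearest MEF peak was 2311 kb from the first peak of this run and further from the others. Some runs lay farther still from any MEF peak, such as a pair on chromosome X at 9194.6 kb.

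The second run of 6 on chromosome 7 (52650978 to 52780831, 129.9 kb) was made of narrow peaks, 315 to 948 bp. Its 2 first peaks stood 61.0 and 51.1 kb from their next neighbours, and the 4 others formed a pair 1300 bp apart and, 11.1 kb further on, a pair 1716 bp apart. Its nearest MEF peak was 275.9 kb away. On chromosome 5 a run of 6 (137578371 to 137731364, 153.0 kb) held 3 peaks with gaps of 6552 and 5556 bp, a pair with a gap of 6010 bp around its widest peak of 2083 bp (137625425 to 137627507), and a sixth peak held in only by the gap of 96.3 kb. No MEF peak lay inside it, and the nearest was 21.9 kb outside. Of the 4 runs of 6 peaks, 3 held 0 MEF peaks, as did 87 of all 110 runs, whereas 7 of the 10 runs of 4 or more peaks held at least 1.

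The fourth run of 6 lay on chromosome 19 (5726883 to 5850647, 123.8 kb) and held the widest peak of the foetal liver list on any of the 21 chromosomes, 22804 bp (5825903 to 5848706). Beside it, 5994 bp away, was a peak of 6727 bp (5813182 to 5819908) that the MEF list gives with the same start and end. The 22804 bp peak was not in the MEF list, and the other 4 peaks of the run, of 522 to 1111 bp, were not either. Peaks filled 26.2% of this span, against 2.78 to 6.36% in the other 3 runs of 6.

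**Figure D3:**
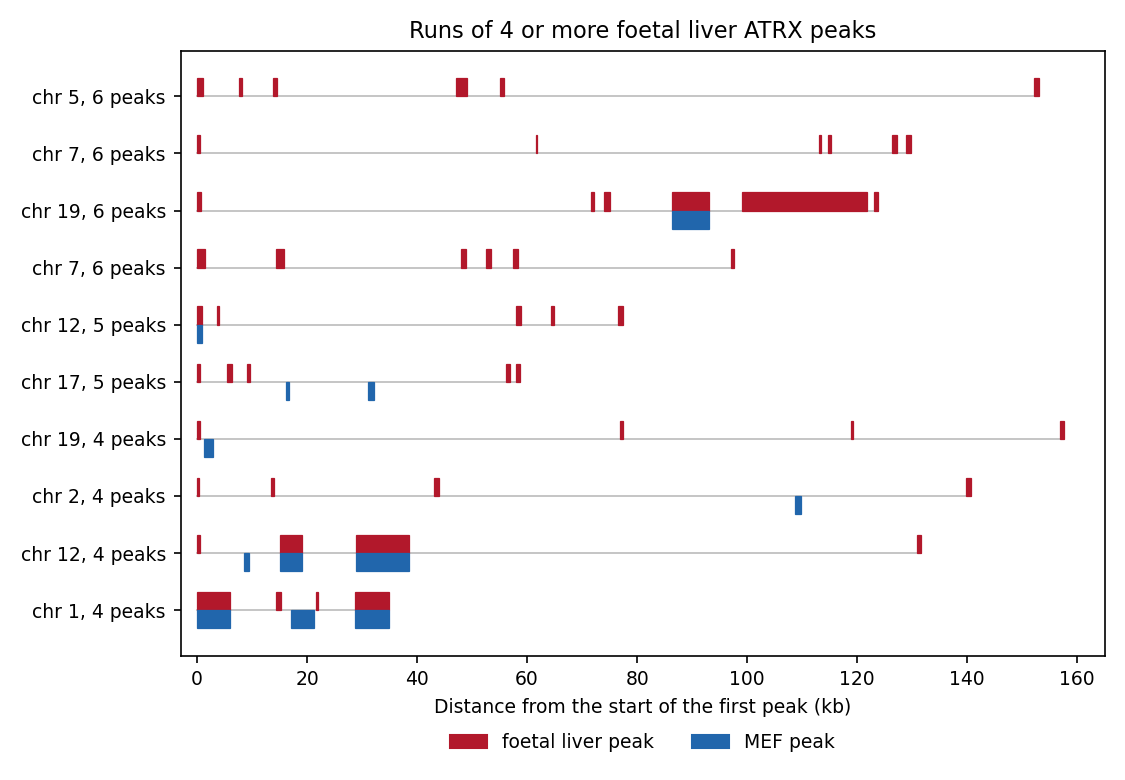
The 10 runs of 4 or more foetal liver peaks, each drawn to scale along a horizontal axis of distance in kb from the start of its first peak, with foetal liver peaks above the line (red) and MEF peaks below it (blue). The runs of 6 peaks on chromosomes 5 and 7 have no MEF peak, and the 4-peak run on chromosome 1 has 3 MEF peaks within 34.9 kb.

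Runs of 5 peaks lay on chromosomes 12 and 17. The run on chromosome 12 (32731316 to 32808766, 77.5 kb) had peaks of 390 to 1008 bp, and its first peak, 909 bp wide, was also in the MEF list with the same start and end. A further pair of foetal liver peaks followed 168.1 kb distal to it. The run on chromosome 17 (29575007 to 29633687, 58.7 kb) consisted of 3 peaks and then 2 peaks across a gap of 46.5 kb. Its widths were close to each other, 620 to 848 bp. The gap held 2 MEF peaks of 573 and 1066 bp (29591213 to 29591785 and 29606116 to 29607181), and no foetal liver peak of the run overlapped either.

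Of the 4 runs of 4 peaks, 1 was compact. The run on chromosome 1 (72271843 to 72306712) was the most compact of the 10, with 4 peaks in 34.9 kb. Its outer peaks, 5907 and 6107 bp, were both in the MEF list with identical ends, and a MEF peak of 4354 bp (72288837 to 72293190) sat between its narrow inner peaks of 1005 and 440 bp, 211 bp from the nearer one. On chromosome 12 (55801847 to 55933505, 131.7 kb) the inner peaks, 4040 and 9603 bp, were likewise in both lists, and the fourth peak stood 92.4 kb away. The runs on chromosome 19 (4044397 to 4202026) and chromosome 2 (84638564 to 84779263) had similarly long spans and held 1 MEF peak each, which overlapped no foetal liver peak. The former had the longest span of all, 157.6 kb, with peaks of 447 to 724 bp and gaps of 76.2, 41.4 and 37.6 kb, and the latter spanned 140.7 kb with peaks of 414 to 978 bp.

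The densest runs of 3 or more peaks, counted per 100 kb of span, were a run of 3 on chromosome 12 (106248379 to 106266243, 16.8 peaks per 100 kb) and one on chromosome 15 (103071175 to 103089268, 16.6). Runs of 3 on chromosome 8 (124832835 to 124857314, 12.3) and chromosome 16 (49771733 to 49800993, 10.3) and the 4-peak run on chromosome 1 (11.5) completed the first 5. The runs of 3 among them held no MEF peak. Of all 18 runs of 3, 5 held one, and 87 of all 110 runs held none. The chromosome 15 run ended 405.7 kb from the distal end of the chromosome.

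Some runs had a further run close by. Of the 110 runs, 20 had another run within 500 kb and 30 within 1 Mb. The runs with a second one in reach, picked here after their values were seen, included 3 in a row on chromosome 8 (from 124374840 to 125299462, with 2, 3 and 3 peaks) and 3 on chromosome 9 (from 107436018 to 107998035, each of 2 peaks). On chromosome X, 2 runs lay 133.3 kb apart at the distal end. The first was the pair of wide shared peaks described next, and the second (166580372 to 166631738) held 3 narrow peaks of 978, 376 and 407 bp, none in the MEF list, and ended 18.6 kb from the end of the assembled chromosome. Of all runs, 8 ended in the last 5 Mb of a chromosome and 4 in the last 1 Mb. The nearest to an assembled end was a pair on chromosome 4 (155576384 to 155630056), 0.064 kb from it. The same counts were not made for solitary peaks, so these are read neither as high nor as low.

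The median width of peaks in runs was above that of solitary peaks, with intervals that just overlap. It was 721 bp (exact 95% interval 665 to 806 bp, 268 peaks, middle 50% 488.5 to 1118 bp), beside 624 bp for solitary peaks (566 to 666 bp, 397 peaks, middle 50% 438 to 923 bp). The ranges overlapped almost wholly at the low end, where the narrowest peaks were 302 and 299 bp. Peaks over 2 kb numbered 18 of 268 in runs (6.72%, 4.03 to 10.4%) and 15 of 397 outside (3.78%, 2.13 to 6.16%), against 4.96% of all peaks on these chromosomes, and those 2 intervals overlap. Run peaks covered 324.6 kb in all and the more numerous solitary peaks 327.4 kb.

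Peaks absent from the MEF list gave the same order. Without the shared peaks the median was 678 bp in runs (620 to 762 bp, 251 peaks) and 584 bp outside (550 to 634 bp, 365 peaks), and the intervals overlap slightly. By run size the median was 683.5 bp in runs of 2 (596 to 807 bp, 164 peaks) and 758.5 bp in runs of 3 or more (644 to 899 bp, 104 peaks), which are not apart beyond their intervals. Inner peaks of runs of 3 or more had a median of 877.5 bp (631 to 1005 bp, 48 peaks) and outer ones 712 bp (608 to 794 bp, 56 peaks), again with overlapping intervals.

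**Figure D4:**
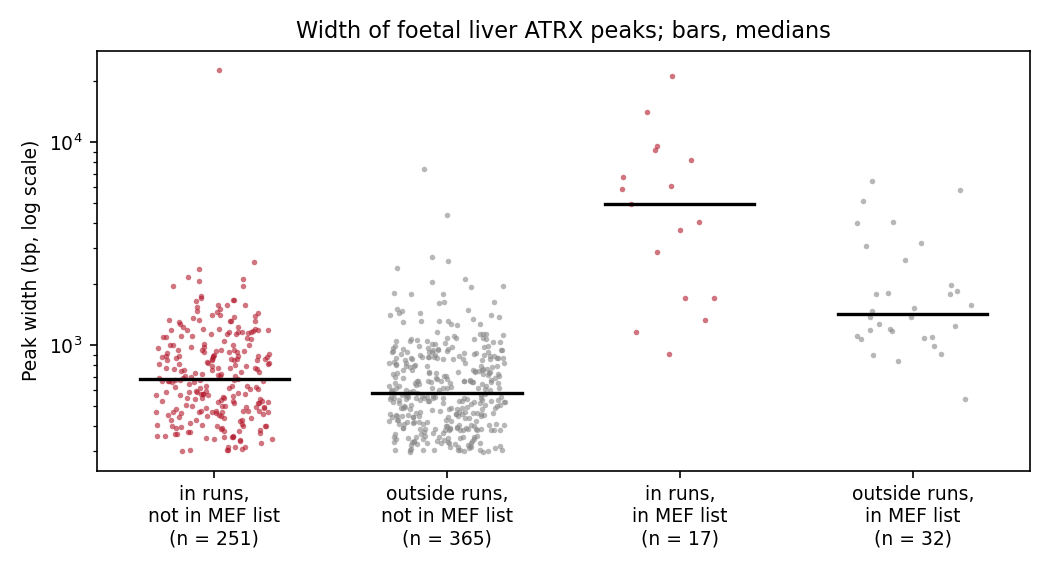
Width in bp (log scale) of each foetal liver peak on the chromosomes used, in runs (red) or outside (grey), split by whether the MEF list holds a peak with the same start and end; black bars are medians. The 17 shared peaks in runs have the highest median, 4993 bp, beside 1422.5 bp for the 32 shared peaks outside runs.

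Widths also varied within a run. The ratio of the widest to the narrowest peak had a median of 1.64 over the 110 runs, exceeded 2 in 43 runs and 5 in 12. The highest ratio, 43.7, was that of the chromosome 19 run with the 22804 bp peak. A peak's width said little about its neighbour's, with a Spearman rho of 0.0963 and a Pearson r of log10 widths of 0.171 over 158 neighbouring pairs of 1 library.

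The wide end of the run peaks was mostly shared with fibroblasts, which is not particular to runs. Over 2 kb, 12 of 18 run peaks and 8 of 15 solitary peaks were shared, with 60.6% of both together. Of the 10 widest run peaks, 9 had a MEF peak with the same start and end, the exception being the 22804 bp peak on chromosome 19. Second in width was a peak of 21289 bp on chromosome 1 (172993643 to 173014931), the middle of a run of 3 whose outer peaks were 665 and 578 bp. Then came the pair on chromosome X, 14118 bp (166423463 to 166437580) and 9184 bp (166437863 to 166447046), which filled 98.8% of its run. The others were 9603 bp on chromosome 12 (55830712 to 55840314) and 8163 bp on chromosome Y (2689152 to 2697314). Narrower still were 6727 bp on chromosome 19, 6107 and 5907 bp on chromosome 1, and 4993 bp on chromosome 9 (65045474 to 65050466). Apart from the pair on X, each of the shared peaks among these 10 lay in a run with narrower foetal liver peaks that the MEF list lacks.

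Taken over all widths, run peaks were in the MEF list about as often as others. An overlap of at least 1 bp was found for 17 of 268 run peaks (6.34%, exact 95% interval 3.74 to 9.96%) and 32 of 397 solitary peaks (8.06%, 5.58 to 11.2%), with 7.37% for all 665, so the share in runs is near that background. All 49 overlaps were peaks with the same start and end in both lists, so their boundaries are not independent measurements, and the lists do not show how they arose. Split by width, 12 of 18 run peaks over 2 kb were shared (66.7%, 41.0 to 86.7%) beside 8 of 15 solitary ones (53.3%, 26.6 to 78.7%), and 60.6% of both together. Up to 2 kb, 5 of 250 run peaks were shared (2.00%, 0.653 to 4.61%) beside 24 of 382 solitary ones (6.28%, 4.07 to 9.204%), and 4.59% of both together. The shared peaks of runs were therefore mostly wide, with a median of 4993 bp (1710 to 8163 bp, 17 peaks) beside 1422.5 bp (1169 to 1846 bp, 32 peaks) for shared solitary peaks.

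MEF peaks lay inside the spans of a minority of runs. No share for other stretches of the same lengths stands beside this one. Per Mb, MEF peaks were denser in run spans than in the rest of the chromosomes, as given below. In 87 of 110 runs there was none, and 23 runs (20.9%, exact 95% interval 13.7 to 29.7%) held 35 MEF peaks. Of the 35, 17 were the shared peaks, 3 lay within shared peaks of chromosomes 1 and Y with other boundaries, and 15 lay between foetal liver peaks without touching one. The 17 shared peaks were in 14 runs, in 10 of which they were the only MEF peaks. The 15 in-between MEF peaks were in 12 runs, had a median width of 1066 bp and stood 0.211 to 29.99 kb from the nearest foetal liver peak, with a median of 11.5 kb.

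The runs with the most MEF peaks inside held 3 each. They were the 4-peak runs on chromosomes 1 and 12, the run of 3 around the 21289 bp peak on chromosome 1 (172963762 to 173032375), and the run of 3 on chromosome Y (2687791 to 2774457), where all 3 MEF peaks coincided with or lay in the 8163 bp peak. Another 4 runs held 2 each. They were the 5-peak run on chromosome 17, the wide pair on chromosome X, a pair on chromosome 8 (73154056 to 73222915) and a run of 3 on chromosome 19 (6236165 to 6300896). The chromosome 8 pair had foetal liver peaks of 399 and 570 bp with MEF peaks of 320 and 734 bp between them, and the chromosome 19 run had foetal liver peaks of 305 to 474 bp with MEF peaks of 1351 and 1460 bp between them. Further runs held 1 shared peak each. Among them were pairs on chromosome 4 (145424874 to 145428917), chromosome 5 (124481922 to 124502622) and chromosome 7 (29157921 to 29168861), and runs of 3 on chromosome 8 (24138593 to 24197476) and chromosome 9 (65045474 to 65136904).

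Longer runs more often held a MEF peak, and they also spanned more sequence. A MEF peak was inside 12 of 28 runs of 3 or more (42.9%, 24.5 to 62.8%) and inside 11 of 82 runs of 2 (13.4%, 6.89 to 22.7%), with median spans of 73.4 and 19.8 kb. Per Mb of span, in-between MEF peaks numbered 4.05 in runs of 3 or more (exact 95% Poisson interval 1.85 to 7.69) and 2.33 in runs of 2 (0.854 to 5.06), which overlap.

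MEF peaks were denser in run spans than along the chromosomes as a whole. Counting every MEF peak, spans held 7.29 per Mb (35 peaks in 4.80 Mb, exact 95% Poisson interval 5.08 to 10.1), beside 0.702 per Mb (0.665 to 0.740, 1350 peaks) in the rest of the 16 chromosomes. Part of this difference is built in, since spans are drawn around foetal liver peaks. The 17 shared MEF peaks and the 3 within shared peaks were inside spans by construction. The density in spans was 12.1 per Mb with gaps up to 50 kb and 4.22 with gaps up to 200 kb. Counting those that overlap no foetal liver peak, spans held 3.12 per Mb (15 peaks, 1.75 to 5.15), beside 0.685 per Mb in the rest (1318 peaks, 0.649 to 0.723). Outside the spans the densities were lower, with intervals that overlap from zone to zone up to 1000 kb and lie apart beyond it. The density was 1.91 per Mb from 10 to 100 kb outside a span (37 peaks, 1.35 to 2.63), 1.50 from 100 to 500 kb (117 peaks, 1.24 to 1.80), 1.37 from 500 kb to 1000 kb (119 peaks, 1.13 to 1.64) and 0.598 beyond that (1039 peaks, 0.562 to 0.636). The interval inside spans also overlaps that of the zone from 10 to 100 kb.

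Around solitary foetal liver peaks the density was lower in each zone outside the spans. Within 10 kb, MEF peaks without an overlap numbered 2.14 per Mb (17 peaks, 1.25 to 3.43), beside 2.74 around runs (6 peaks, 1.005 to 5.96). From 10 to 100 kb they numbered 1.17 per Mb (82 peaks, 0.932 to 1.45), and from 100 to 500 kb 1.29 per Mb (332 peaks, 1.16 to 1.44). In these 3 zones the intervals overlap those of the runs. From 500 kb to 1000 kb the density was 0.977 per Mb (236 peaks, 0.856 to 1.11), and there the intervals do not overlap. Counted per foetal liver peak without an overlap, 19 of 251 run peaks (7.57%, 4.62 to 11.6%) and 14 of 365 solitary peaks (3.84%, 2.11 to 6.35%) had a MEF peak within 10 kb, against 5.36% of both together. Within 100 kb it was 89 of 251 (35.5%, 29.5 to 41.7%) and 77 of 365 (21.1%, 17.02 to 25.65%), against 26.9% of both. Peaks of 1 run can share the same MEF neighbour, so the 251 run peaks are fewer than 251 separate observations. Gene density along the chromosomes, and regions that gather reads in any library, could not be set beside these densities here.

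**Figure D5:**
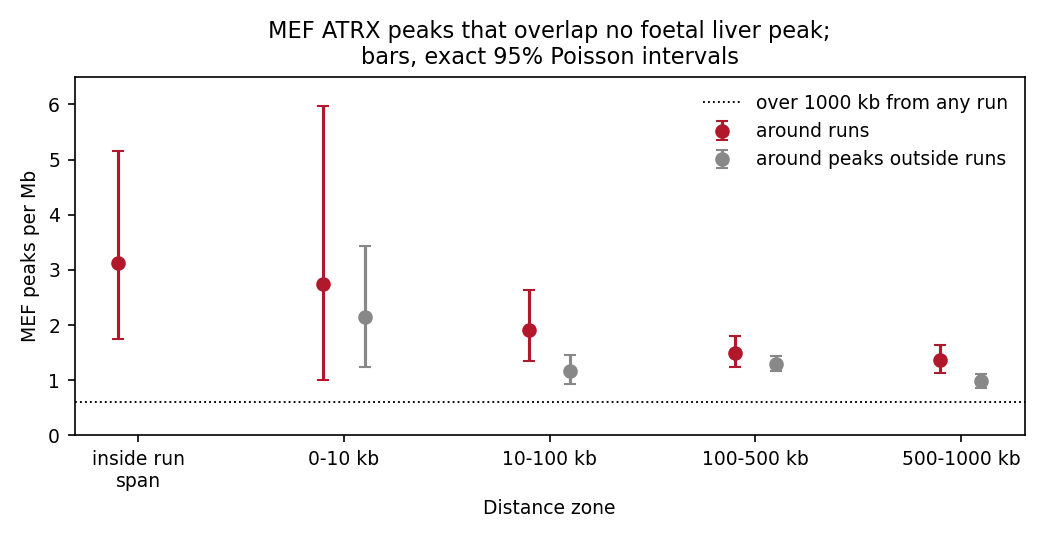
MEF ATRX peaks that overlap no foetal liver peak, per Mb, by distance zone from run spans (red) and from solitary foetal liver peaks (grey), with exact 95% Poisson intervals; the dotted line is the density over 1000 kb from any run. Around runs the density is 3.12 per Mb inside spans and 1.37 in the farthest zone, with overlapping intervals between neighbouring zones, and the line is at 0.598.

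The MEF list has runs of its own. By the same rule, 574 of 1385 MEF peaks on these chromosomes (41.4%, 38.8 to 44.1%) formed 225 runs of up to 15 peaks, beside 40.3% of foetal liver peaks in a list with fewer peaks. Of the 110 foetal liver runs, 13 (11.8%) touched the span of a MEF run, and of the 225 MEF runs 13 (5.78%) touched that of a foetal liver run. No share for other stretches of the same length stands beside these, so they are read neither as high nor as low. Of the 35 MEF peaks inside foetal liver runs, 25 belonged to a MEF run.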

How the data were processed

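The submitters' processing notes name Bowtie 0.12.3 and mm9. How peaks were called, against which control and with which filters is not given in the sources used here. The authors deposited, for each of the 2 libraries analysed, a list of peak positions without a header, score or count, read here as BED intervals with starts counted from 0.

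Runs joined neighbouring foetal liver peaks with a gap of at most 100 kb. In simulated lists, planted runs were recovered in 20 of 20. Those lists were spaced by the same limit, so this checks the grouping step only and says nothing about the runs found. Bedtools 2.31.1 gave the same 110 runs. Shares have exact Clopper-Pearson 95% intervals, medians exact order-statistic intervals and densities exact Poisson intervals. The unsequenced first 3 Mb of each chromosome except Y was left out of densities. Y was counted at its full 15.9 Mb, with no unsequenced part taken out. In the distance zones MEF peaks were placed by their midpoint. Chromosome lengths of mm9 came from GenomeInfoDb 1.38.1. Python 3.11.15, numpy 2.4.6 and scipy 1.17.1 were used.

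Regions named were the runs of 4 or more peaks, the 10 widest run peaks, the 5 longest, shortest and densest runs, the runs with most MEF or shared peaks, and the pairs nearest the limit. Members, rule and comparisons were chosen with earlier results of these data known. Alternatives were other gap limits, chromosomes, peak sets, run sizes and overlap rules.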

Additional observations from a re-analysis of the deposited data

How the results depend on the processing

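Of 78 values under alternative settings, 53 stayed within the interval of the value reported (for the number of runs, within 1.5 times) and 25 did not. The share of peaks in runs was 31.7% with gaps up to 50 kb, 48.9% with 200 kb, 45.3% with all chromosomes, 30.1% in the wider 50% of the list and 15.6% for runs of at least 3 peaks. The number of runs was 167, 41 and 28 under the last 3 of these. With at least 3 peaks, runs had a median of 3 peaks and 73.4 kb. With gaps up to 50 and 200 kb the median span was 17.98 and 60.5 kb. In the wider 50% of the list the median width was 1096 bp, which that choice sets, and 10.4% of run peaks overlapped a MEF peak. That share was 0% with peaks identical to a MEF peak left out, by construction, and 13.4% with a MEF peak within 10 kb, against 12.3% of all peaks. Runs with a MEF peak inside made up 12.6% with identical peaks left out, 42.9% of runs of at least 3, 10.9% for MEF peaks without an overlap and 40.0% with spans widened by 100 kb. MEF peaks inside spans numbered 12.1 per Mb with gaps up to 50 kb, 4.22 with 200 kb, 4.59 with identical peaks left out, 3.12 without overlaps and 2.94 in widened spans. Some other directions also follow from the settings. A lower or higher gap limit can only lower or raise the share in runs, and a minimum of 3 peaks can only lower the share and number of runs. MEF peaks without an overlap are part of all those inside spans, so their number can only be lower. Adding chromosomes can only raise the number of runs, and a minimum of 3 peaks can only raise the median per run. Counting MEF peaks within 10 kb can only raise the share of run peaks. Widened spans can only raise the share of runs with a MEF peak inside. The cause of the remaining changes was not tested. Leaving out chromosomes X and Y, the run with the most peaks or the chromosome with the most run peaks moved none of the 8 values beyond its interval. No paired analysis was possible because each group has 1 library and the result comes from no test. The depth behind the peaks is unknown, and the lists hold no measure of it.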
